A study of Mus musculus with 17 samples.

Results

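Cathepsins are the main proteases of the lysosome, the acidic compartment in which macrophages degrade what they engulf and cut antigens for presentation on MHC class II. The name covers enzymes of different chemistry. Ctsb, Ctsc, Ctsh, Ctsk, Ctsl, Ctss and Ctsz encode cysteine proteases of the papain family, Ctsd an aspartic protease, Ctsa a serine carboxypeptidase and Ctsg a serine protease of neutrophil granules. Most are made as inactive precursors, reach the lysosome by mannose 6-phosphate or sortilin sorting, mature there by cleavage, and are held in check by cystatins and serpins. Many of their genes carry a motif bound by TFEB and its relatives, the transcription factors of lysosome biogenesis.

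These 10 genes were taken by symbol from a table of 24453 gene models, and all 10 had a row. Levels were polyA RNA-seq values in RPKM, exonic reads scaled to exon length and sequencing depth, so genes can be compared per length. Of the 10, 9 reached a mean of 1 RPKM over the libraries fitted and were tested. Ctsg did not.

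Of the 13 libraries, 8 came from immortalised macrophages grown from mouse bone marrow (iBMDMs) and 5 from the mouse peritoneum. The iBMDMs, labelled male, C57Bl/6EiJ and passage 3 to 8, were transformed with mutant BRAF and Myc, expressed Cas9 and received vehicle. They carried guides against Atf3 (label Atf3KO), Jun (JunKO) or Jund (JunDKO), or were the scramble control (Scramble), with 2 libraries in each of these 4 groups. Titles of the Scramble libraries name zsGreen, and Atf3KO replicate 2 has a later date than the other iBMDM libraries. Infected cells were sorted on a marker of the guide vector, and the study's methods name no cloning step. Thioglycollate-elicited macrophages (TGEMs) were flushed from the peritoneum of 8-week-old mice 3 days after injection and were given vehicle or 100 ng/mL of the TLR4 ligand Kdo2 lipid A (KLA) for 1 h. TGEMs labelled C57Bl/6EiJ (C57Bl/6J in the study's methods) gave 1 vehicle (C57 Veh) and 1 KLA library (C57 KLA), and Balb/cJ TGEMs 1 vehicle (Balbc Veh) and 2 KLA libraries (Balbc KLA). Nothing in the labels says that replicates were separate cultures or animals, so p-values measure the spread between these libraries.

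Depth was 1553296 to 18444423 reads a library. All 6 macrophage markers examined, among them Csf1r, Cd68 and Adgre1, were at 1 RPKM or more in both kinds of cell. TGEMs are labelled male but held 863 to 8676 reads of Xist, where iBMDM libraries held at most 3. The targeted transcripts were as follows. Atf3 was at 80.7 and 77.4 RPKM in Scramble and 154 and 169 where the label was Atf3KO, Jun at 17.6 and 18.5 RPKM in Scramble and 26.2 and 20.5 where it was JunKO, and Jund at 9.19 and 8.33 RPKM in Scramble and 6.94 and 6.07 where it was JunDKO. None of the 3 was lower past the test, and Atf3 was higher. Jund was also called higher in the libraries labelled Atf3KO than in Scramble, at 22.6 and 83.0 RPKM (2.19 ± 0.49, SE, log2(RPKM + 1) scale, limma-trend adjusted p = 0.010). The higher value came from Atf3KO replicate 2, the library with the later date. This call is given without fits that leave out libraries or correct for GC content. An edited gene can still be transcribed, so these values do not test the edits, and groups are named by their labels. The study checked knockout efficiency by western blotting and reports a substantial loss of Jun ChIP-seq binding in its Jun knockout iBMDMs.

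Cathepsin transcripts were abundant in both cell types and made up a near-constant share of the mRNA in the iBMDM lines. Summed over the 10 genes they took 1.39% and 1.33% of all RPKM in the Scramble libraries, 1.32% and 1.33% in those labelled Atf3KO, 1.30% and 1.29% in those labelled JunKO, and 1.33% and 1.37% in those labelled JunDKO. The 8 iBMDM values thus spanned 1.29% to 1.39%, although single members moved within the sum. In TGEMs the share was 6.10% (C57 Veh), 6.27% (C57 KLA), 5.12% (Balbc Veh), 5.38% and 5.63% (Balbc KLA), above every iBMDM library. These shares were not tested, because the members were chosen. In bulk samples fewer cells of a type and less RNA per cell cannot be told apart.

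**Figure D1:**
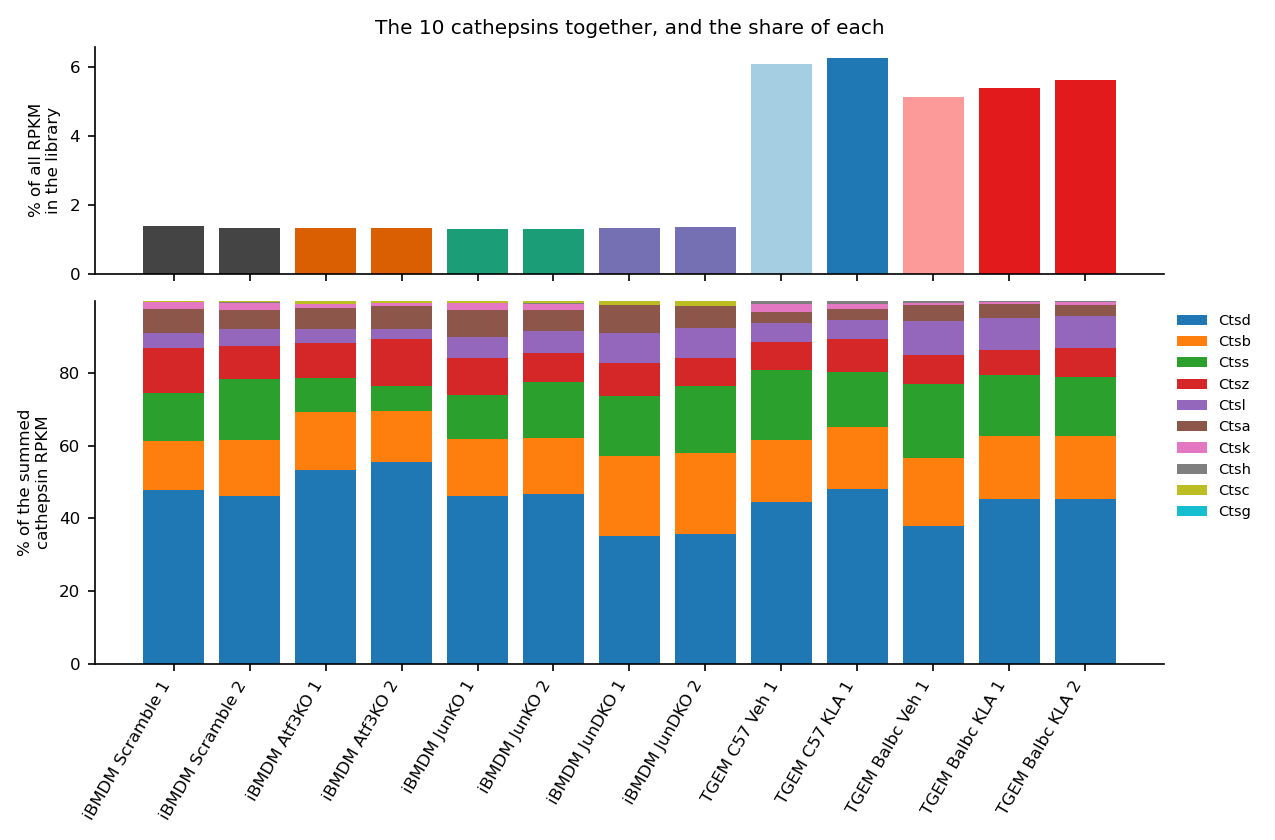
Upper panel: summed RPKM of the 10 cathepsins as a percentage of all RPKM in each of the 13 libraries, 1 bar a library. Lower panel: share of each cathepsin in that sum, in percent. The 8 iBMDM bars lie between 1.29% and 1.39% and the 5 TGEM bars between 5.12% and 6.27%. Ctsd fills 35.1% and 35.7% of the sum in the JunDKO libraries against 46.2% to 55.6% in the other iBMDM libraries.

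Ctsd was the most abundant member in all 13 libraries. Averaged over the 8 iBMDM libraries it measured 2304 RPKM and ranked 9 among all gene models, and over the 5 TGEM libraries 9119 RPKM and ranked 3. Ctsb, Ctss and Ctsz followed in iBMDMs, with means of 831, 667 and 499 RPKM, and in TGEMs Ctss, Ctsb and Ctsz with 3604, 3553 and 1627 RPKM. The order of Ctsb and Ctss was not fixed, as they changed places between the 2 Scramble libraries. In TGEMs Ctss was above Ctsb in both vehicle libraries and below it in every KLA library. Ctsa (320.1 RPKM in iBMDMs and 693 in TGEMs) and Ctsl (267 and 1488) came next, while Ctsk, Ctsc and Ctsh ranked from 1084 to 8321 in iBMDMs. Ctsg, the protease of azurophil granules, had no read in 12 libraries and 1 read (0.153 RPKM) in Balbc KLA replicate 2, where 3 reads would be 0.460 RPKM. The neutrophil precursor genes Elane and Mpo were at or below 0.672 RPKM in every library.

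**Figure D2:**
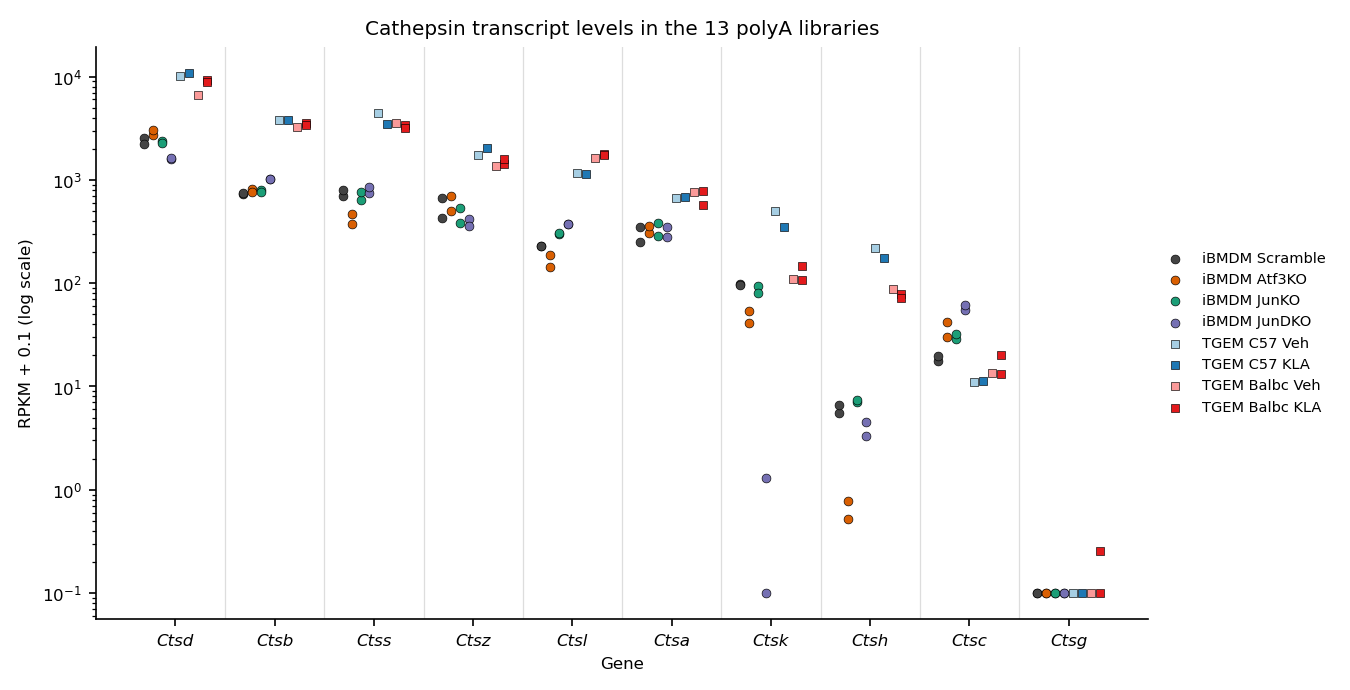
Level of each cathepsin in each library, as RPKM + 0.1 on a log scale, with circles for iBMDM and squares for TGEM libraries, 1 point a library and colours for the 8 groups. Ctsd lies highest and Ctsg lowest throughout (level with Ctsk in JunDKO replicate 1), Ctsk drops to 0 and 1.21 RPKM in the JunDKO libraries, Ctsh to 0.424 and 0.687 in the Atf3KO libraries, and Ctsc is the only one of the 9 tested members with a lower mean in TGEMs than in iBMDMs.

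The regions around the start sites are shown for 5 members, the neighbouring genes Ctsk and Ctss, Ctsc, which with Ctsk was called in the libraries labelled JunDKO, and Ctsd and Ctsa for the lysosomal motif. RefSeq promoter windows (GRCm38.p6, 250 bases before to 50 after the start) were held for 8 of the 10 members, with 2 windows for Ctsa and none for Ctsb and Ctsh. They were searched on both strands for the AP-1 motif TGACTCA, the CRE form TGACGTCA, the extended E-box TCACGTGA of the TFEB family and the PU.1-type motif GAGGAAGT. None of the 9 windows held either AP-1 form, which occurred in 5.20% and 1.79% of all 32851 windows. Of the 2 Ctsa windows, that printed below held the E-box, at 13 bases before and 4 bases after the start, and the other held no match. The E-box also lay in the Ctsd window, 99 bases before the start, and in 0.974% of all windows. The PU.1-type motif lay in those of Ctsc (151 bases before the start) and Ctss (2 bases before it), and in 3.20% of all. None of these motifs overlapped another, and a match describes letters and not a bound site. Capitals below mark the matches, on either strand, and the Ctsk window has none.
Ctsk, plus strand, chr3:95498960-95499259: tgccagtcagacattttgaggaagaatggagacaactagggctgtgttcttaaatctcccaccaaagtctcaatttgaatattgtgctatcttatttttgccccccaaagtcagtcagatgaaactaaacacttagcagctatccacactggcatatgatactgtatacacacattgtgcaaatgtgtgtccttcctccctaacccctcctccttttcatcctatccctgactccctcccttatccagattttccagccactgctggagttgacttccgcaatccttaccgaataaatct
Ctss, plus strand, chr3:95526536-95526835: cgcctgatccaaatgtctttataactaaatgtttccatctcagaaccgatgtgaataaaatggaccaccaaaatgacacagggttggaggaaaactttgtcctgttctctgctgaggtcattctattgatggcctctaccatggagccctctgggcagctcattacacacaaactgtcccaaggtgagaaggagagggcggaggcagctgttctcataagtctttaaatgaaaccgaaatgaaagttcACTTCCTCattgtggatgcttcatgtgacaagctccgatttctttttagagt
Ctsc, plus strand, chr7:88277835-88278134: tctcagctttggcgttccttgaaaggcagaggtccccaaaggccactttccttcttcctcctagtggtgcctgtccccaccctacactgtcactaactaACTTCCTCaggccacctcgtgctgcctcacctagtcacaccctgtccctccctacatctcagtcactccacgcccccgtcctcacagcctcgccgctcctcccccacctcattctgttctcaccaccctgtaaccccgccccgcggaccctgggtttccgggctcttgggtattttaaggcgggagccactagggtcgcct
Ctsd, minus strand, chr7:142387778-142388077: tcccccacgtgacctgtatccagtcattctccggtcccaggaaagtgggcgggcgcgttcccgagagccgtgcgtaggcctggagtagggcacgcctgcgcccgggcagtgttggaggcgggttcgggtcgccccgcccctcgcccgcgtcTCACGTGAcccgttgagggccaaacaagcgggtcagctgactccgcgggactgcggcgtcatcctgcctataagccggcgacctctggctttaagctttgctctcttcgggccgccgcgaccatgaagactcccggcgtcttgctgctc
Ctsa, plus strand, chr2:164833523-164833822: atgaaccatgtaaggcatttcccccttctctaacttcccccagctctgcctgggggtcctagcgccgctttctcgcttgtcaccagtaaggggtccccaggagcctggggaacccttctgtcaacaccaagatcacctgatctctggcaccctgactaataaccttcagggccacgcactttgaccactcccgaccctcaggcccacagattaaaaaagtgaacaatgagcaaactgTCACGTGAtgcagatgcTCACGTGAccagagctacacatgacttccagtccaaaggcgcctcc

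Ctsk and Ctss are neighbours on chromosome 3. The Ctsk model spanned 95499210 to 95509387 and the Ctss model 95526786 to 95556405, both on the plus strand, with 17398 bases and no other gene model of the table between them. G and C made up 43.7% of the Ctsk window and 44.0% of the Ctss window, against 67.3% of the Ctsd window, which held 33 CG dinucleotides where that of Ctsk held 2.

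The libraries labelled JunDKO were compared with Scramble to ask which mRNAs differ when JunD is targeted. Ctsk, encoding the collagen-degrading protease best known from osteoclasts, fell to 0 and 1.21 RPKM, and Ctsc, encoding the dipeptidyl peptidase that activates granule serine proteases, rose 3.14-fold. These were the 2 of 9 tested members that met the call rule (adjusted p under 0.05, a change of at least 2-fold and 16 RPKM in either group mean), which 4.97% of all 10691 tested genes met. A limma-trend adjusted p under 0.05 was reached by 3 of the 9, against 11.7% of all tested genes, and the 2 groups did not overlap in 7 of the 9, against 61.6%. The median difference of the 9 was 0.06 on the log2(RPKM + 1) scale and that of all tested genes 0.24.

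Ctsk was at 98.8 and 95.1 RPKM in Scramble, from 300 and 256 reads. In the libraries labelled JunDKO it was at 0 and 1.21 RPKM, from 0 and 35 reads, where 3 reads would be 1.23 and 0.103 RPKM. Both JunDKO values thus lay far below every other library of the series, and the shallow one could not have shown a level under its floor. On the log2(RPKM + 1) scale the difference was -6.04 ± 0.34 (SE, n = 2 libraries per group, limma-trend adjusted p = 4.22e-05), with -5.47 without JunDKO replicate 1 and -6.61 without JunDKO replicate 2. In RPKM the Scramble mean was 80.4 times the level in JunDKO replicate 2 and at least 79.0 times that in JunDKO replicate 1, taking its floor of 3 reads. Ctss, next to it on the chromosome, was at 697 and 804 RPKM in Scramble and 752 and 849 in JunDKO, with overlapping groups.

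Ctsc was at 17.4 and 19.7 RPKM in Scramble and 54.7 and 62.0 in the libraries labelled JunDKO, the highest of all 13 libraries. The difference was 1.60 ± 0.21 (SE, log2(RPKM + 1) scale, limma-trend adjusted p = 0.00244). For Ctsk and Ctsc the call held in all 13 alternative analyses, with differences of -4.19 to -7.33 for Ctsk and 1.32 to 1.69 for Ctsc. Markers of neutrophils summed to 0 and 0.056 RPKM in the 2 JunDKO libraries and to 21.8 to 41.1 in the other iBMDM libraries, all of the latter S100a8, with Elane, Mpo and Ly6g at 0. Of the 6 macrophage markers only Mertk was called against Scramble in JunDKO (all tested genes 4.97%) and in Atf3KO (12.5%), and none in JunKO. Mertk was higher, at 7.04 and 8.27 RPKM in Scramble, 36.1 and 36.8 in JunDKO and 28.8 and 24.6 in Atf3KO. Itgam was at 441 and 420 RPKM in Scramble and 213 and 220 in JunDKO. The part of these marker differences in the Ctsk and Ctsc results was not tested.

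Ctsl, an endopeptidase that also degrades the invariant chain of MHC class II, was at 228 and 229.8 RPKM in Scramble and 375 and 370.2 in the libraries labelled JunDKO. The groups did not overlap, and the difference of 0.70 ± 0.17 (SE, log2(RPKM + 1) scale) passed the test at a limma-trend adjusted p of 0.0354 but was under 2-fold. It was lost at equal library medians (0.42, limma-trend adjusted p = 0.195) and without any 1 of the 4 libraries, where the limma-trend adjusted p was 0.136 and 0.153 without Scramble replicate 1 and 2, and 0.191 and 0.170 when JunDKO replicate 1 and 2 were left out.

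Ctsd and Ctsb lay on opposite sides of Scramble without passing the test. Ctsd was at 2554 and 2213 RPKM in Scramble and 1609 and 1631 in the libraries labelled JunDKO (-0.55 ± 0.17, SE, log2(RPKM + 1) scale, limma-trend adjusted p = 0.0715). Ctsb, an endopeptidase that also trims carboxyl ends, was at 727 and 740.1 RPKM in Scramble and 1017 and 1018 in those labelled JunDKO (0.47 ± 0.15, limma-trend adjusted p = 0.0851). In neither gene did the groups overlap. Both passed with limma-voom on recovered reads (limma-voom adjusted p = 0.0341 and 0.0468) and after GC correction (limma-trend adjusted p = 0.0103 and 0.0127). At equal library medians Ctsd passed (-0.83, limma-trend adjusted p = 0.0124) and Ctsb did not (0.19, limma-trend adjusted p = 0.514), and after quantile normalization the differences were 0.20 for Ctsd, in the other direction, and 0.93 for Ctsb (limma-trend adjusted p = 0.0244).

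The remaining members did not pass in the libraries labelled JunDKO. Ctsh, an aminopeptidase, was at 3.20 and 4.41 RPKM against 5.47 and 6.54 in Scramble (-0.55 ± 0.25, SE, log2(RPKM + 1) scale, limma-trend adjusted p = 0.199). Ctsz, a carboxypeptidase also called cathepsin X, was at 420.4 and 359 RPKM against 665 and 426 (-0.45 ± 0.28, limma-trend adjusted p = 0.332, and 0.0400 after GC correction). Ctsa and Ctss differed from Scramble by under 0.4 on that scale, and their groups overlapped.

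**Figure D3:**
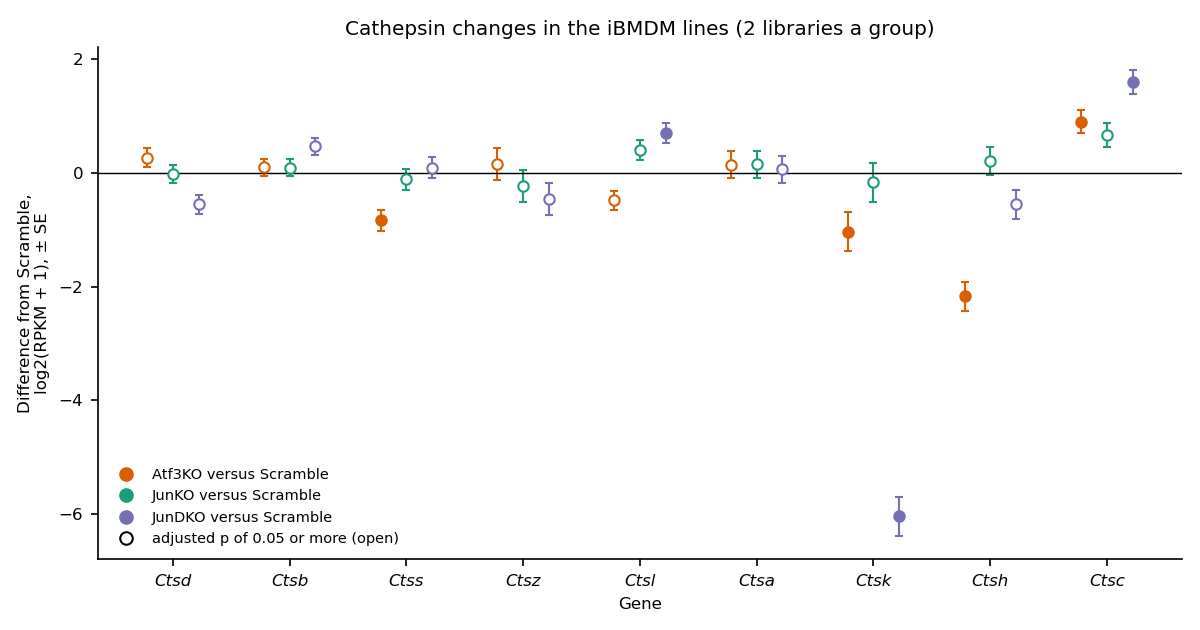
Difference of each tested cathepsin from Scramble on the log2(RPKM + 1) scale in the libraries labelled Atf3KO, JunKO and JunDKO, with bars of 1 SE from limma-trend (2 libraries a group). Filled points have an adjusted p under 0.05. Filled points are Ctsk, Ctsc and Ctsl for JunDKO, Ctsk, Ctsh, Ctss and Ctsc for Atf3KO, and none for JunKO. The 3 comparisons share the 2 Scramble libraries.

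In the libraries labelled Atf3KO, Ctsk, Ctss and Ctsh were lower than in Scramble and Ctsc was higher. A limma-trend adjusted p under 0.05 was reached by 4 of the 9 tested members, against 41.2% of all tested genes, and the call rule by 1 (Ctsk), against 12.5%. The groups did not overlap in 7 of 9, against 70.8%. The median difference of the 9 was 0.10 on the log2(RPKM + 1) scale and that of all tested genes 0.05. In this comparison GC-rich genes tended to be higher (Spearman's rho of 0.50 between GC content and fold change over 10617 genes, not independent of each other), and GC-corrected differences are given for the members below.

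Ctsh was at 5.47 and 6.54 RPKM in Scramble (17 and 18 reads) and at 0.424 and 0.687 in the libraries labelled Atf3KO (3 and 8 reads). The 2 Atf3KO values were the lowest of the series and lay below both Scramble and both JunKO values by more than 4 RPKM. The difference was -2.17 ± 0.25 (SE, log2(RPKM + 1) scale, limma-trend adjusted p = 0.000868), the group means differed 10.8-fold in RPKM, and the test was passed in all 14 alternatives, with -2.27 after GC correction. With its low level Ctsh could not meet the minimum of 16 RPKM and was not called. The Atf3KO libraries held reads in 10425 and 10631 gene models, against 11884 to 12533 in the other iBMDM libraries. Of those others only JunDKO replicate 2 was deeper. The part of this in the Ctsh difference was not tested.

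Ctsk was detected at 53.8 and 41.0 RPKM (372 and 467 reads) with the Atf3KO label, between the Scramble and JunDKO levels and overlapping neither. The difference from Scramble was -1.03 ± 0.34 (SE, log2(RPKM + 1) scale, limma-trend adjusted p = 0.0429). The call held in 5 of 14 alternatives, among these 5 the crossed replicate block, which was added after seeing the data. The adjusted p was over 0.05 in 8 of the 14, up to 0.236 by limma-trend, and with a pseudocount of 5 the change was under 2-fold. The limma-trend adjusted p was 0.0669 without Atf3KO replicate 1, 0.196 without Atf3KO replicate 2, 0.141 without Scramble replicate 1 and 0.150 without Scramble replicate 2, and 0.0524 after GC correction, where the difference was -0.90. Its neighbour Ctss, which encodes the invariant chain protease of antigen-presenting cells, was at 467 and 378 RPKM in the libraries labelled Atf3KO, lower than in every other library of the series. For Ctss the difference was -0.83 ± 0.19 (SE, log2(RPKM + 1) scale, limma-trend adjusted p = 0.0106, and 0.0778 without Scramble replicate 2), and it was -0.50 after GC correction.

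Ctsc was at 42.2 and 30.1 RPKM in the libraries labelled Atf3KO, above both Scramble values of 17.4 and 19.7. The difference was 0.91 ± 0.21 (SE, log2(RPKM + 1) scale, limma-trend adjusted p = 0.0113), with a limma-trend adjusted p of 0.0612 without Scramble replicate 1. Ctsc had the lowest GC content of the 10 members (39.2%), and after GC correction its difference was 1.77 and it was called, as it was without Atf3KO replicate 2 (1.14). Ctsl was at 186 and 144 RPKM, below both Scramble values, and did not pass (-0.48 ± 0.17, limma-trend adjusted p = 0.0534). Without Atf3KO replicate 1 it passed (-0.66, limma-trend adjusted p = 0.0133), and after GC correction it was -0.13 (limma-trend adjusted p = 0.376).

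The other members did not pass in the libraries labelled Atf3KO without the GC correction. Ctsd was at 2706 and 3018 RPKM, Ctsb at 818 and 760.2, Ctsz at 502 and 699.9 and Ctsa, the protective protein of lysosomal neuraminidase and beta-galactosidase, at 304 and 357 RPKM. Each differed from Scramble by under 0.4 on the log2(RPKM + 1) scale, with limma-trend adjusted p from 0.229 to 0.679, and the groups overlapped for Ctsz and Ctsa. After GC correction the differences were -0.10 for Ctsd, 0.19 for Ctsb and -0.19 for Ctsa, none past the test. Ctsz changed sign with it, from 0.16 to -0.45, and passed (limma-trend adjusted p = 0.0476).

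No cathepsin passed the test between the libraries labelled JunKO and Scramble. The call rule was met by 0 of 9 members, against 0.196% of all tested genes, and an adjusted p under 0.05 by 0 of 9, against 0.281%. At an unadjusted p under 0.05 there were 2 members, Ctsc and Ctsl, and 842 of all 10691 tested genes, and limma-voom on recovered reads also called 0. The groups did not overlap in 5 of 9, against 37.2%, and the median difference was 0.09 for the 9 and 0.005 for all tested genes. Ctsc was at 28.4 and 32.0 RPKM in the libraries labelled JunKO, above both Scramble values (0.67 ± 0.21, SE, log2(RPKM + 1) scale, limma-trend adjusted p = 0.404). Ctsl was at 300.1 and 307 RPKM, also above both (0.41 ± 0.17, limma-trend adjusted p = 0.617). Ctsk was at 94.0 and 80.1 RPKM and Ctss at 633 and 759 RPKM in these libraries.

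**Figure D4:**
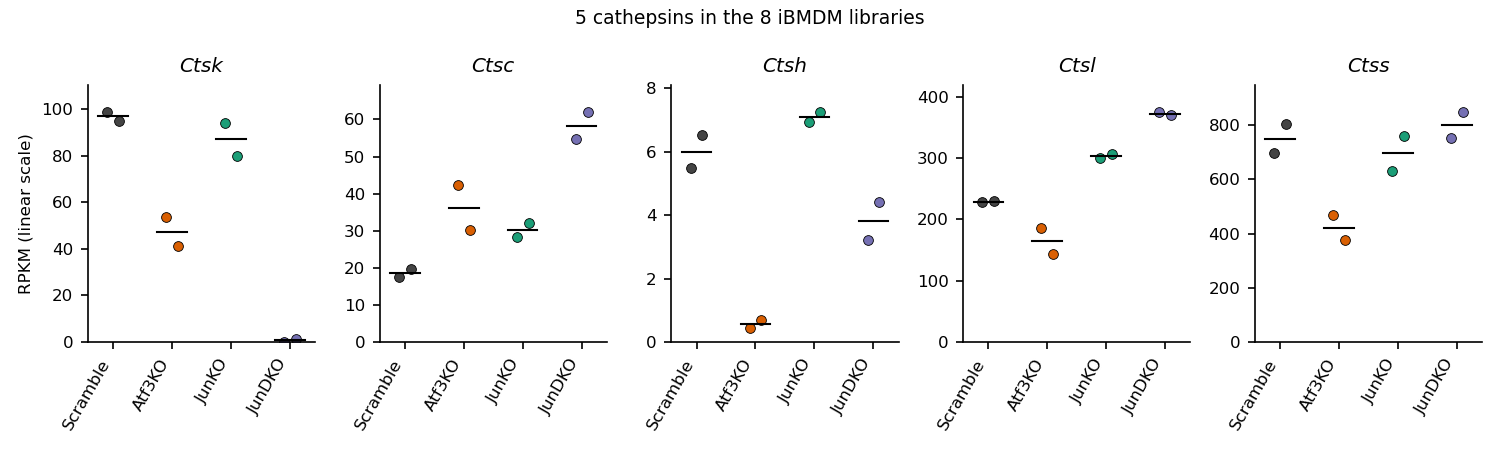
RPKM of 5 cathepsins in the 8 iBMDM libraries on linear axes from 0, 1 point a library, with a line at the mean of the 2 libraries. Ctsk is 0 and 1.21 RPKM in the JunDKO libraries and 80.1 to 98.8 in Scramble and JunKO. Ctsc runs from 17.4 and 19.7 RPKM in Scramble to 54.7 and 62.0 in JunDKO, and Ctsh and Ctss are lowest in Atf3KO.

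The edited lines were also compared with each other. Between the libraries labelled JunDKO and JunKO 1 of 9 members was called (all tested genes 3.50%), namely Ctsk, with a difference of -5.88 ± 0.34 (SE, log2(RPKM + 1) scale, limma-trend adjusted p = 7.86e-05). An adjusted p under 0.05 was reached by 2 of 9, against 8.14%. The other was Ctsc, at a difference of 0.93 ± 0.21 (limma-trend adjusted p = 0.0332), which was lost without each of the 4 libraries (limma-trend adjusted p from 0.118 to 0.218), at equal library medians (0.119), after quantile normalization (0.0591) and with the replicate block (0.0605).

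Between the libraries labelled Atf3KO and JunDKO 2 of 9 members were called, against 12.2% of all tested genes, and 6 of 9 had an adjusted p under 0.05, against 40.7%. Ctsk was higher in Atf3KO, by 5.01 ± 0.34 on the log2(RPKM + 1) scale (limma-trend adjusted p = 7.66e-05). Ctsl was lower, by -1.18 ± 0.17 (limma-trend adjusted p = 0.00156, and -0.87 after GC correction). Ctsh (-1.62), Ctss (-0.93), Ctsd (0.82) and Ctsc (-0.69) also passed, with limma-trend adjusted p of 0.00199, 0.00649, 0.00641 and 0.0306. After GC correction Ctsd was at a difference of 0.48 (limma-trend adjusted p = 0.0125). Ctsd no longer passed without JunDKO replicate 1 (limma-trend adjusted p = 0.0572) or replicate 2 (0.0601), without the filter on low values (0.0650) or after quantile normalization (a difference of 0.12, 0.628), nor Ctss without JunDKO replicate 2 (0.0643). Ctsc was lost without Atf3KO replicate 2, JunDKO replicate 1 or JunDKO replicate 2 (limma-trend adjusted p = 0.115, 0.0857 and 0.163), at equal library medians (-0.54, 0.0816), and was 0.12 after GC correction.

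Between the libraries labelled Atf3KO and JunKO 0 of 9 were called, against 9.71%, and 3 of 9 had an adjusted p under 0.05, against 35.5%. These were Ctsh (-2.38 ± 0.25, SE, log2(RPKM + 1) scale, limma-trend adjusted p = 0.000823), Ctsl (-0.89 ± 0.17, 0.00715) and Ctss (-0.72 ± 0.19, 0.0214). Ctsl no longer passed without JunKO replicate 2 (limma-trend adjusted p = 0.0519), nor Ctss without Atf3KO replicate 2 (0.0773) or JunKO replicate 2 (0.149). After GC correction the differences were smaller, -0.55 for Ctsl and -0.40 for Ctss, and still passed (limma-trend adjusted p = 0.00746 and 0.0235). At an unadjusted p under 0.05 there were 4 members, these 3 and Ctsk, and 5146 of all 10691 tested genes. Limma-voom on recovered reads called 0 members, the GC-corrected fit 1, Ctsc, and the fit without Atf3KO replicate 1 also 1, Ctsl.

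TGEMs held more of nearly every cathepsin than the immortalised line. In C57 Veh TGEMs 8 of the 9 tested members were higher than in Scramble iBMDMs and met the call rule, against 8.16% of all tested genes called higher and 20.8% called in either direction. An adjusted p under 0.05 was reached by the same 8, against 42.8%. The median difference was 2.33 on the log2(RPKM + 1) scale for the 9 members and -0.24 for all tested genes. This comparison rests on 1 TGEM library against 2 Scramble libraries. The C57 Veh library adds nothing to the estimate of spread, which comes from the 5 groups with 2 libraries, and is assumed to vary as they do, so the p-values hold only under that assumption. Of the 6 macrophage markers 4 were called lower in it than in Scramble (Adgre1, Csf1r, Itgam and Lyz2) and 2 higher (Cd68 and Mertk), with Adgre1 at 60.7 RPKM against 669 and 744, while markers of 4 other kinds of cell summed higher in all 5 TGEM than in all 8 iBMDM libraries, at 476 to 912 RPKM against at most 7.25 for osteoclasts, 19.8 to 37.2 against at most 0.106 for fibroblasts and mesothelium, 4.31 to 14.7 against at most 0.488 for B cells and 1.78 to 19.2 against at most 0.549 for mast cells. Nearly all of the osteoclast sum in TGEMs was Atp6v0d2 (373 to 817 RPKM) and Acp5 (31.7 to 343). There Dcstamp was at most 4.32 RPKM, Ocstamp and Oscar at most 0.235, and Calcr at 0. Neutrophil markers summed to 0.794 to 13.4 RPKM in TGEMs, to 21.8 to 41.1 in the 6 iBMDM libraries not labelled JunDKO and to at most 0.056 in the other 2. Sums for dendritic cells overlapped (0.436 to 1.61 against at most 0.758), and those for T cells and eosinophils were at most 0.519 and 0.160 RPKM in any library. The part of these markers in the cathepsin differences was not tested. Origin, culture, transformation and date differ together here and cannot be told apart. Xist differed as well, at 19.2 to 28.1 RPKM in TGEMs and at most 0.029 in iBMDMs, although both are labelled male.

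Ctsh showed the largest difference, at 221 RPKM in C57 Veh against 5.47 and 6.54 in Scramble, or 36.8-fold (4.99 ± 0.24, SE, log2(RPKM + 1) scale, limma-trend adjusted p = 5.98e-06). Ctss, at 4405 RPKM, was 5.87-fold, Ctsb, at 3806, 5.19-fold, Ctsk, at 496, 5.12-fold, and Ctsl, at 1154, 5.04-fold above the Scramble mean. Ctsd, at 10070.1 RPKM, was 4.22-fold, Ctsz, at 1739.6, 3.19-fold and Ctsa, at 667, 2.21-fold above it. Limma-trend adjusted p for these 7 ran from 8.1e-05 to 0.0190, but Ctsa no longer passed without Scramble replicate 2 (limma-trend adjusted p = 0.0914) nor Ctsd without the filter on low values (0.0517). Ctsc went the other way without passing, at 10.9 RPKM in C57 Veh against 17.4 and 19.7 (-0.72 ± 0.30, limma-trend adjusted p = 0.0821).

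Balb/cJ and C57Bl/6EiJ TGEMs differed in Ctsk. It was at 496 and 348 RPKM in C57 Veh and C57 KLA and at 109.9, 107 and 146 in the Balbc Veh and 2 Balbc KLA libraries, so the strains did not overlap. With treatment as a covariate the difference, Balb/cJ minus C57Bl/6EiJ, was -1.76 ± 0.30 (SE, log2(RPKM + 1) scale, n = 3 and 2 libraries, limma-trend adjusted p = 0.0351), and the means differed 3.48-fold. Ctsk was the 1 of 9 members called and the 1 of 9 with an adjusted p under 0.05, against 1.16% and 2.31% of all 10357 genes tested. The groups did not overlap in 7 of 9, against 35.1%. The call was lost without 4 of the 5 libraries in turn. The limma-trend adjusted p was 0.193 without Balbc KLA replicate 1, 0.298 without Balbc Veh, 0.107 without C57 KLA and 0.271 without C57 Veh. It was also lost without the filter on low values (0.134) and after quantile normalization (0.0583). The median difference was -0.18 for the 9 members and -0.08 for all tested genes.

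Ctsh followed the same order, at 221 and 173 RPKM in C57 Veh and C57 KLA and 88.4, 78.2 and 71.2 in the Balb/cJ libraries (-1.25 ± 0.25, SE, log2(RPKM + 1) scale, limma-trend adjusted p = 0.0530). The strains did not overlap, and Ctsh was called at equal library medians, with limma-voom and in the fit over all 13 libraries (adjusted p = 0.0479, 0.00892 and 0.00632). Ctsl had the opposite order, at 1154 and 1137 RPKM against 1639, 1763 and 1746 (0.57 ± 0.24, limma-trend adjusted p = 0.225). The date in the titles differs between the strains (1 date for C57Bl/6EiJ, 2 others for Balb/cJ), so strain and date cannot be told apart, and Balb/cJ reads were aligned to a genome of their own.

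Of 6 macrophage markers Csf1r was called lower in Balb/cJ (-1.37 ± 0.26, SE, log2(RPKM + 1) scale, limma-trend adjusted p = 0.0483), and Mertk (-1.44), Adgre1 (-0.98) and Itgam (-0.79) were at lower levels without overlap but did not pass, while Cd68 and Lyz2 overlapped. The Csf1r call was not recomputed with libraries left out. Osteoclast and fibroblast genes are given too, because both cell types make the protease. Of 6 osteoclast markers 2 or 3 were at 1 RPKM or more in each TGEM library, summing to 912 and 852 RPKM in C57 and to 849.6, 563 and 476 in Balb/cJ libraries, most of it Atp6v0d2. Acp5, among them, was at 269.8 and 343 RPKM in C57 and 31.7, 82.4 and 102 in Balb/cJ libraries (-2.39 ± 0.34, SE, log2(RPKM + 1) scale, limma-trend adjusted p = 0.0179, and 0.148, 0.190 and 0.158 without Balbc KLA replicate 1, Balbc Veh or C57 Veh), while Calcr was at 0 in every library. Atp6v0d2 overlapped between the strains (0.005 ± 0.29, limma-trend adjusted p = 0.993). Dcstamp was lower in Balb/cJ without overlap but did not pass (-1.37 ± 0.32, limma-trend adjusted p = 0.0740). Ocstamp and Oscar were at most 0.235 RPKM in TGEMs. Of 5 fibroblast and mesothelial markers 4 were at 1 RPKM or more in each TGEM library, summing to 30.1 and 27.8 RPKM in C57 and 37.2, 35.4 and 19.8 in Balb/cJ libraries. The part of these markers in the Ctsk difference was not tested. In iBMDMs the osteoclast list summed to at most 7.25 RPKM, with the highest sums in the 2 JunDKO libraries, where Ctsk was lowest.

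No cathepsin passed the test for KLA at 1 h. With strain as a covariate 0 of 9 members were called (all tested genes 1.13%) and 0 of 9 had an adjusted p under 0.05 (1.53%), at an unadjusted p under 0.05 there were 0 (all tested genes 1553), and limma-voom called 0. The smallest limma-trend adjusted p was 0.560, for Ctsd, at 10070.1 and 10827 RPKM in C57 Veh and KLA and 6618, 9210.5 and 8870.2 in Balbc Veh and the 2 Balbc KLA libraries. KLA and vehicle libraries did not overlap in 1 of 9, Ctss, against 23.7% of all tested genes. Ctss was at 4405 and 3591 RPKM with vehicle and 3442, 3417 and 3164 with KLA, the lower values all being KLA (limma-trend adjusted p = 0.677). Ctsk went down in the C57 pair, from 496 to 348 RPKM, and was at 109.9 with vehicle and 107 and 146 with KLA in Balb/cJ. The interaction of KLA and strain called 0 of 9 members and 0% of all tested genes, by limma-trend and limma-voom, and 0 of 9 members but 835 of all genes had an unadjusted p under 0.05.

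**Figure D5:**
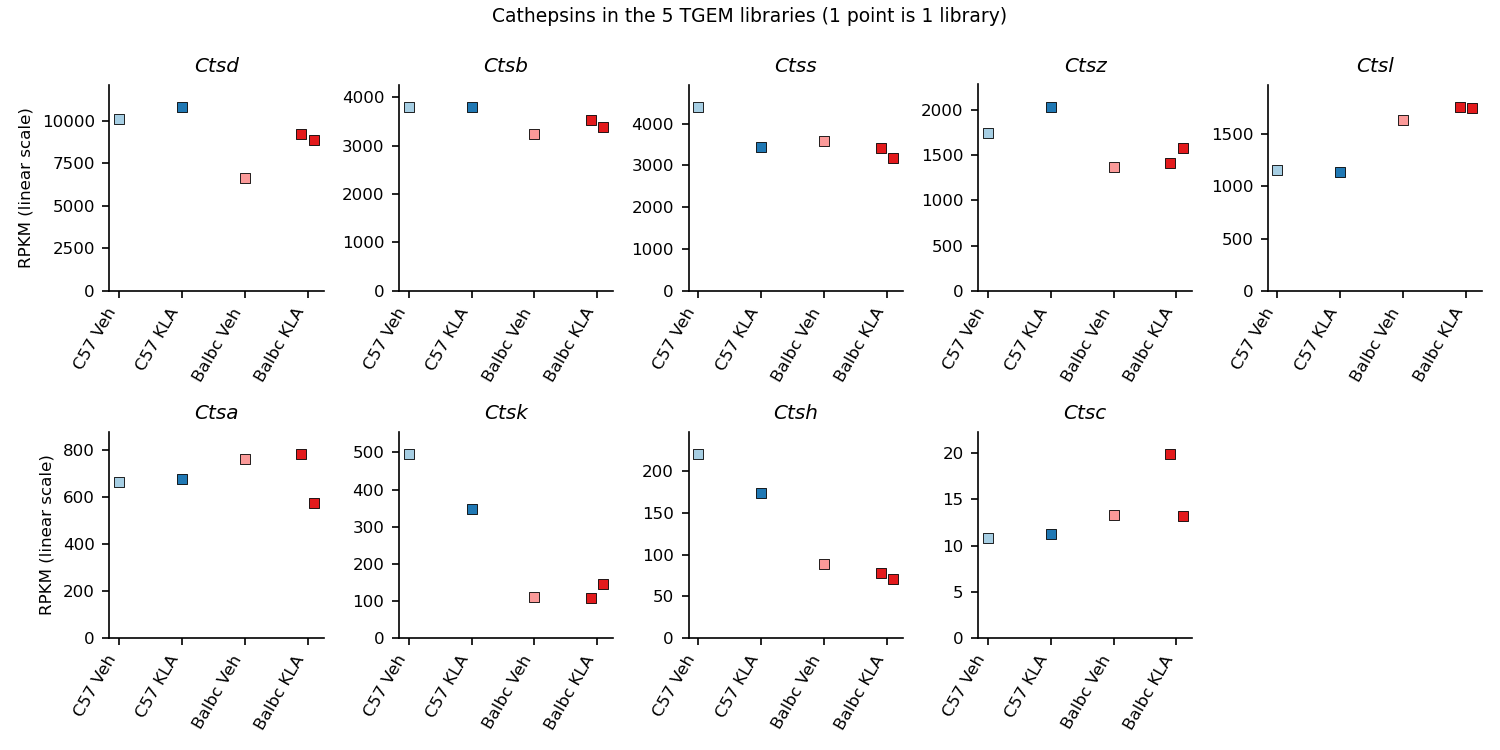
RPKM of the 9 tested cathepsins in the 5 TGEM libraries on linear axes from 0, 1 point a library. Ctsk and Ctsh lie higher in both C57 libraries than in the 3 Balbc libraries and Ctsl lower. For Ctss the 2 vehicle points lie above the 3 KLA points.

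Genes that act on cathepsins were read from lists. Of 14 cystatins, stefins and serpins that inhibit cathepsins 6 were tested in iBMDMs. In the libraries labelled JunDKO 3 of these 6 were called, against 4.97% of all tested genes. Cst3, encoding the secreted inhibitor cystatin C, was at 718 and 569 RPKM against 329 and 228 in Scramble (1.22 ± 0.26, SE, log2(RPKM + 1) scale, limma-trend adjusted p = 0.0201). Its adjusted p was 0.147, 0.174 and 0.0890 by limma-trend without Scramble replicate 2, JunDKO replicate 1 and JunDKO replicate 2, and at equal library medians its difference was under 2-fold (0.94). Stfa3, of the stefin A cluster, was at 1.58 and 0.133 RPKM against 243 and 294 in Scramble (limma-trend adjusted p = 4.83e-05), and its cluster neighbour 2010005H15Rik at 1.24 and 1.25 against 64.6 and 132 (limma-trend adjusted p = 0.000207). Stefin A genes are near copies of each other, so reads may be split between them. In the libraries labelled Atf3KO 2 of the 6, again these stefin genes, were called lower (all tested genes 12.5% called), Stfa3 at 76.6 and 35.6 RPKM and 2010005H15Rik at 0 in both, and in C57 Veh TGEMs both were at 0. There Cst3 and Cstb were called higher than in Scramble, at 1916 and 1264 RPKM.

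Of 11 genes of cathepsin sorting, activation or partnership all 11 were tested. In the libraries labelled JunDKO 2 were called (all tested genes 4.97%). Lgmn, encoding the protease legumain that cleaves cathepsin precursors, rose from 235 and 171 RPKM to 792 and 686 (1.87 ± 0.20, SE, log2(RPKM + 1) scale, limma-trend adjusted p = 0.000994). Igf2r, encoding the large mannose 6-phosphate receptor, fell from 30.9 and 25.7 RPKM to 8.48 and 7.17 (-1.73 ± 0.20, limma-trend adjusted p = 0.00122). Across the 13 alternatives both stayed called. In C57 Veh TGEMs 8 of the 11 were called higher than in Scramble and none lower (all tested genes 8.16% called higher), led by Psap, the saposin precursor, at 10672 RPKM against 967 and 821. Of these 8, Gnptg and Glb1 did not pass when Scramble replicate 2 was left out (limma-trend adjusted p = 0.113 and 0.0503), nor Gnptg without the filter on low values (0.0849). In the libraries labelled Atf3KO 1 was called, against 12.5% of all tested genes, namely Glb1 (1.18, limma-trend adjusted p = 0.00667, and 0.0522 without Scramble replicate 2). Its difference was under 2-fold after GC correction (0.91) and quantile normalization (0.97). The TFEB family had 4 members tested, of which 1 was called higher in C57 Veh TGEMs than in Scramble (all tested genes 8.16%), Tfeb, at 44.2 RPKM in C57 Veh against 4.58 and 4.65 in Scramble.

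Of 13 cathepsin genes outside the 10, 2 were tested in iBMDMs and 3 in TGEMs, while 9 had no read in any iBMDM library and 8 none in any TGEM library. Ctsf, a papain-type protease, was called higher in the libraries labelled JunDKO, at 31.9 and 23.2 RPKM against 5.55 and 2.98 (2.46 ± 0.40, SE, log2(RPKM + 1) scale, limma-trend adjusted p = 0.00658). It did not hold without Scramble replicate 2 or either JunDKO replicate (limma-trend adjusted p = 0.0683, 0.0866 and 0.0548). Ctse, an aspartic protease, was at 6.68, 7.10 and 4.76 RPKM in Balb/cJ TGEMs and at most 0.277 in all other libraries (2.75 ± 0.29 between strains, limma-trend adjusted p = 0.00578), below the 16 RPKM a call needs.

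Across all 13 libraries the levels of several members moved together. Pearson's r of log2(RPKM + 1) was 0.98 for Ctsh with Ctss and for Ctsd with Ctsz, and -0.86 for Ctsk with Ctsc. Within the 8 iBMDM libraries these pairs kept their sign, at 0.84, 0.77 and -0.83. There r was also 0.91 for Ctsb with Ctsc, -0.89 for Ctsl with Ctsd and -0.96 for Ctsb with Ctsk. Over the 13 libraries those latter pairs had the opposite sign, at -0.69, 0.84 and 0.46. The libraries share groups and differ in depth, and the 13 span both kinds of cell, so these values are descriptions and carry no p. By the same measure over 13 libraries and 10929 genes, the genes most like Ctsk were Pirb (0.96), S100a6 (0.95) and Dnm1 (0.94), and those most like Ctsc were Dock1 (0.97), Ifi27l2a (0.96) and Aldh1l2 (0.95). H2-Aa was closest to Ctsb (0.9965), Fam198b and Slamf8 to Ctsh (0.99 and 0.98), and Cd24a to Ctsl (0.98).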

How the data were processed

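PolyA RNA-seq of 13 mouse macrophage libraries was used, and 4 GRO-seq samples were not analysed here. Per the study's methods, the authors aligned with STAR, to mm10 or to a BALB/cJ genome, and per the file headers counted exonic reads with HOMER's analyzeRepeats and deposited RPKM (tool versions and strandedness are not given in the sources used here). The columns are headed FPKM, while the command in the header asks for RPKM. The table also lists the exonic length per gene model.

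From these values, reads and depth were recovered from the step that 1 read makes: 100% of values up to 50 reads lay within 0.05 of a whole read or within rounding. Models whose fitted libraries averaged 1 RPKM or more were tested genome-wide with limma-trend (limma 3.58.1, R 4.3.3) on log2(RPKM + 1), which understates changes of low genes: 8 iBMDM libraries with 1 coefficient per group, 5 TGEM libraries with treatment and strain (and their interaction), and all 13 for TGEMs against iBMDMs. Tests were two-sided with Benjamini-Hochberg adjustment over all tested genes. Called genes had an adjusted p under 0.05, a 2-fold change and 16 RPKM in either group mean, adapted from thresholds the study gives. Its edgeR test was not used here, and applying 16 RPKM to either group mean was a choice made here. The depth and test scripts were tested on simulated data. Replicates differed by more than counting error (chi-square per degree of freedom 3.54 to 75.2), and precision was set by 1 or 2 libraries a group. The Balbc KLA replicates are numbered in accession order.

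The members and lists were chosen with earlier results of these data known. Genes named are the 10 members, list genes past the call rule or needed beside a result, and the 3 genes most correlated with a member. Alternatives were a pseudocount of 0.25 or 5, no filter, equal library medians, quantile normalization, limma-voom on recovered reads, each library left out, a replicate block, a GC correction (GC known for 98.8% of models) and other sample sets. The crossed replicate block was added after seeing the data. Tables and plots were made with pandas 2.3.3, numpy 2.4.6 and matplotlib 3.10.9 in Python 3.11.15.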

Additional observations from a re-analysis of the deposited data

How the results depend on the processing

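The 2 calls of JunDKO against Scramble and the 1 of JunDKO against JunKO kept their number under every alternative, as did the 0 of JunKO, KLA and the interaction and, within 1.5 times, the 8 of TGEMs against iBMDMs (7 without Scramble replicate 2 and without the filter on low values). The number called in Atf3KO against Scramble was 1 and became 0 with a pseudocount of 0.25 or 5, without the filter on low values and with the replicate block, and 0 to 1 with a library left out. In Atf3KO against JunDKO it was 2, 1 after GC correction, 3 after quantile normalization and 2 to 3 with a library left out, and in Atf3KO against JunKO 0, 1 after GC correction and 0 to 1 with a library left out. In Balb/cJ against C57Bl/6EiJ it was 1, became 0 without the filter and after quantile normalization and 2 at equal library medians, with limma-voom and in the fit over all 13 libraries, and was 0 to 1 with a library left out. The cause was not tested. After quantile normalization Ctsd was 0.20 higher in JunDKO than in Scramble and 0.29 higher than in JunKO, and after GC correction Ctsc was 0.12 higher in Atf3KO than in JunDKO, each turning its direction. Of 516 values of member differences under alternatives, 446 kept direction and side of the threshold, 42 lost and 25 gained an adjusted p under 0.05. A further 46 differences were under 0.4 on the log2 scale, 28 of them changed sign somewhere and 1 was called once.

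The replicate numbers of the iBMDM groups do not pair all samples: same-numbered libraries deviated together between Scramble, JunKO and JunDKO (r = 0.18 to 0.22) and against each other with Atf3KO (r = -0.21 to -0.12). With the replicate block Ctsk of Atf3KO against Scramble was -1.03 with a limma-trend adjusted p of 0.0617, Ctsc of JunDKO against JunKO 0.0605, and 1320 genes were called in place of 1339. With crossed numbers, chosen after seeing the data, 1391 were called. At equal library medians the 531 genes called for JunDKO against Scramble became 527, of which 164 were higher in place of 288. Depth limits Ctsg, with no read in 12 libraries, Ctsh, with 3 and 8 reads in the Atf3KO libraries, and Ctsk, with none in JunDKO replicate 1. A library left alone in its group is assumed to vary like the others.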
